A study of Fragaria x ananassa with 4 samples.

Results

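FaMYB10 and FaEOBII are transcription factors of the R2R3 MYB family that act in the ripe receptacle of strawberry, Fragaria × ananassa. They were followed through the 3 names under which the arrays carry them, gene31413 and Famyb10 for FaMYB10 and gene28435 for FaEOBII, out of 35116 gene names on the arrays. Each name has 1 probe. gene31413 and Famyb10 were each printed in 2 spots and gene28435 in 1, so 5 spots per array were read. All 3 passed the filter on dim probes, as did 24978 names in all.

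Receptacle, the fleshy tissue that carries the achenes, was compared between 2 samples of red ripe fruits (R) and 2 samples of green fruits (small green, G1, in the methods). Per the labels, the plants grew in a chamber at 25 °C and 80% humidity and then in a greenhouse. No construct, line or treatment is given for either stage, and 200 ng of total RNA per sample, from independent fruits, was labelled with Cy3. The methods describe the cultivar Camarosa, fruits from the field and pools of fruits with the achenes removed. They give a chamber at 25 °C and 80% humidity for the plants used for infiltration, where the strawberry cultivar was Elsanta. The methods thus do not settle the cultivar of these samples. Whether the 2 samples of a stage came from separate pools was not settled either. The p-values measure only the spread between these samples, which may be technical. Because each sample is whole receptacle, fewer cells of a type and less RNA per cell cannot be told apart.

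R2R3 MYB proteins bind DNA through a pair of MYB repeats and often switch on whole branches of phenylpropanoid metabolism, in anthocyanin regulation commonly together with a bHLH and a WD40 protein. FaMYB10 is known as the regulator of the flavonoid and anthocyanin genes that colour the ripening receptacle. FaEOBII, named after the petunia regulator of floral scent, acts on genes for eugenol, a volatile phenylpropene of the ripe fruit, namely FaCAD1 (cinnamyl alcohol dehydrogenase) and FaEGS2 (eugenol synthase), and the study places it downstream of FaMYB10.

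The study amplified gene31413 and gene28435 by qRT-PCR, and the 4 primers of these 2 genes are shown because they are the designed sequences that define which transcripts carry the names FaMYB10 and FaEOBII. Each is written 5′ to 3′, with the last 5 bases, where the polymerase extends, in capitals.
gene31413 forward: cggcttcatacgcaaAGCAA
gene31413 reverse: gagtctgtggtggtgCTGTT
gene28435 forward: atcaagcaaggtgatCAGAG
gene28435 reverse: catagaccagagatcCTCCA
All 4 primers are 20 bases long and hold between 9 and 11 G or C bases. The array probes are other sequences, and the position of either gene in a genome was not used here.

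The arrays themselves were even within each stage. The 75th percentile of the signal was 671 and 509 in the red samples and 390 and 347 in the green samples, and between 23658 and 24374 of 35335 probes were well above background. The log2 values correlated at 0.994 between the red arrays, 0.995 between the green arrays and 0.818 to 0.821 across stages. Red replicate 1 was on a slide of its own, and the other 3 arrays shared a second slide. Of 6 ripening genes read for the stage, 5 were higher in red receptacle. They were the quinone oxidoreductase gene28407 (log2 fold change 6.75) and the acyltransferases gene34009 (6.19) and gene07931 (4.89). The rhamnogalacturonate lyase gene31030 (4.53) and the polygalacturonase gene21638 (3.74) were also among these 5. The study lists these 5 as up-regulated in red receptacle with these samples in view. Their direction is thus no independent check of the stage. The remaining one, gene30478 (FaPRE1), was called lower in red (log2 fold change -0.65, limma adjusted p = 0.0025) and was not called in the RMA matrix deposited with the arrays. By qRT-PCR the study found FaPRE1 transcript rising through development to a peak in ripe receptacle. These arrays did not show that rise, and the reason was not tested.

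FaMYB10 was far below the 75th percentile of its array in green receptacle and far above it in red. The gene31413 probe gave processed signals of 23542 and 22103 in its pair of spots on red array 1 and of 16383 and 17376 on red array 2. In the green arrays the same spots read 64.6 and 67.6 on array 1 and 70.2 and 49.6 on array 2. All red spots were thus far above all green spots before any scaling, and the stages did not overlap.

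The spots of the Famyb10 probe, entered under the gene's name and not under a gene model, behaved alike. They read 39652 and 37542 on red array 1 and 30323 and 28132 on red array 2. On the green arrays they read 68.5 and 58.5 on array 1 and 48.1 and 51.5 on array 2. Both FaMYB10 probes were thus low in both green samples and high in both red ones.

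FaEOBII was measured by the single spot of gene28435. In red receptacle it read 4647 on array 1 and 3690 on array 2. In green receptacle it read 99.9 and 121. The red values lay above the green ones with no overlap, at a smaller distance than for FaMYB10.

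**Figure D1:**
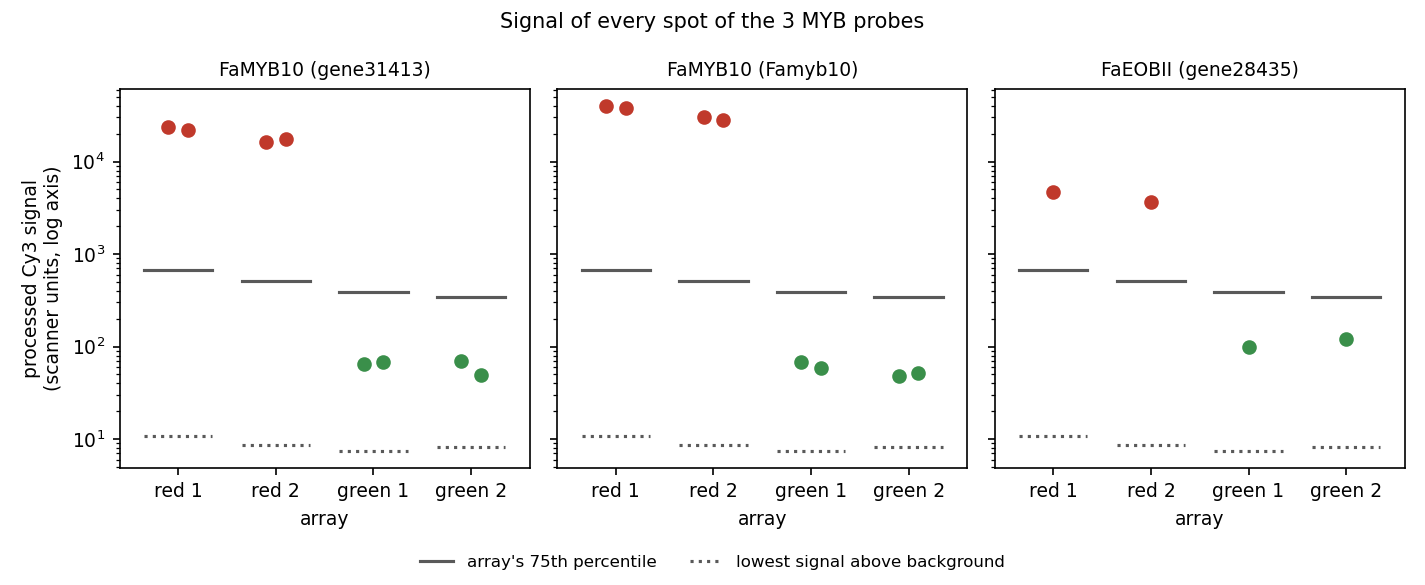
Processed Cy3 signal (scanner units, log axis) of each spot of the probes for FaMYB10 (gene31413 and Famyb10, 2 spots each) and FaEOBII (gene28435, 1 spot) on the 4 arrays. Solid lines are each array's 75th percentile and dotted lines the lowest signal counted as well above background. All red spots lie above the 75th percentile and all green spots between the 2 lines.

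The green signals were low but measured. All 5 spots were well above background on all 4 arrays, none was saturated and none was marked as an outlier. In the green arrays the median spot signal was between 3.52 and 6.91 times the local background. The dimmest member spot read 58.5 on green array 1 and 48.1 on green array 2. The lowest signal counted as well above background was 7.54 and 8.29 on these arrays. Of 308 negative control spots, 0 reached the dimmest member spot on green array 1 and 1 did on green array 2, and 95% of them were at or below 2.22 there.

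Set relative to each array's 75th percentile on the log2 scale, so that 0 is a probe at that percentile, gene31413 had levels of 5.09 and 5.05 in red and of -2.56 and -2.56 in green. Its log2 fold change was 7.63 ± 0.06 (SE, n = 2 against 2), a 198-fold increase (95% interval 175 to 224), with an adjusted p of 3.11e-05 in limma. The near-equal green values are averages over a pair of spots that differed by 1.41-fold on green array 2. The spread between the spots of a probe is thus larger than that between the green samples, and the 2 spots taken apart gave 184-fold and 213-fold. Over all probes with a pair of spots, the median gap was 0.12 on the log2 scale on that array and its 95th percentile 0.78, against a gap of 0.50 for gene31413.

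Famyb10 had levels of 5.85 and 5.84 in red and of -2.62 and -2.80 in green. It rose by 8.56 ± 0.09 on the log2 scale (SE, n = 2 against 2), or 377-fold (95% interval 316 to 449), with a limma adjusted p of 3.11e-05. Its 2 spots gave 380-fold and 373-fold. The green samples (SD 0.13) carried most of its spread, since the red ones were nearly equal.

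gene28435 had levels of 2.79 and 2.86 in red and of -1.97 and -1.52 in green. It rose by 4.57 ± 0.18 on the log2 scale (SE, n = 2 against 2), or 23.7-fold (95% interval 16.8 to 33.4), with a limma adjusted p of 0.00016. Its green samples were the most spread of the 3 probes (SD 0.32), and with 1 spot per array there is no second reading on either.

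All 3 names passed the test as higher in red. Across all genes tested the same call was made for 37.8%, the opposite one for 35.0% and either one for 72.8%, so the call alone does not set these genes apart. Red arrays that both lay above both green arrays were likewise found for 45.1% of all genes. A call with at least a 2-fold increase was made for 17.4%. The size of the change was less common: of 24978 genes, 15 had a higher fold change than Famyb10, 30 than gene31413 and 323 than gene28435, beside a median log2 fold change of 0.04 over all genes. In the RMA matrix Famyb10 ranked 65th, gene31413 118th and gene28435 596th by fold change.

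The members did not change to the same degree. The probe of Famyb10 rose 1.90 times as much as that of gene31413, a difference of 0.93 on the log2 scale. On the red arrays the level of Famyb10 exceeded that of gene31413 by 0.76 and 0.79, and on the green arrays it was 0.06 and 0.25 lower, with no overlap between stages. Both names stand for FaMYB10, and their probes were unequal in brightness in red and both dim in green. The probe sequences were not available, so whether both read the same transcript was not tested. Only changes between stages are compared, and how far the dim green signal sets their size was not tested. gene31413 rose 8.36 times as much as gene28435 (3.06 on the log2 scale), and Famyb10 15.9 times as much (3.99). In the 3 pairs compared, the exact two-sided permutation test over samples gave p = 0.333 each (0.333 after adjustment over the pairs), which is the smallest p that 2 samples against 2 allow. This test can thus not pass a threshold here, and no other test of these differences was run.

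The size of the FaMYB10 change depended on how the weak green signal was corrected for background. With the normexp correction, gene31413 rose 106-fold and Famyb10 197-fold, against 198-fold and 377-fold with the processed signal. gene28435 rose 16.8-fold. With no background subtraction, a setting added after the data were seen, the rises were 148-fold, 271-fold and 20.2-fold. In the authors' RMA matrix, gene31413 read 17822 and 17243 in red and 62.8 and 61.5 in green, and Famyb10 read 30145 and 29849 in red and 60.1 and 51.6 in green. gene28435 read 3629 and 3769 in red and 96.0 and 129 in green. The log2 fold changes from that matrix were 8.14, 9.07 and 5.05, but there the median of all genes was itself shifted by 0.51. Relative to that median they were 7.63, 8.56 and 4.54, close to the 7.59, 8.52 and 4.53 obtained in the same way with the main scaling. Under these settings Famyb10 stayed above gene31413 by 0.88 to 0.93.

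**Figure D2:**
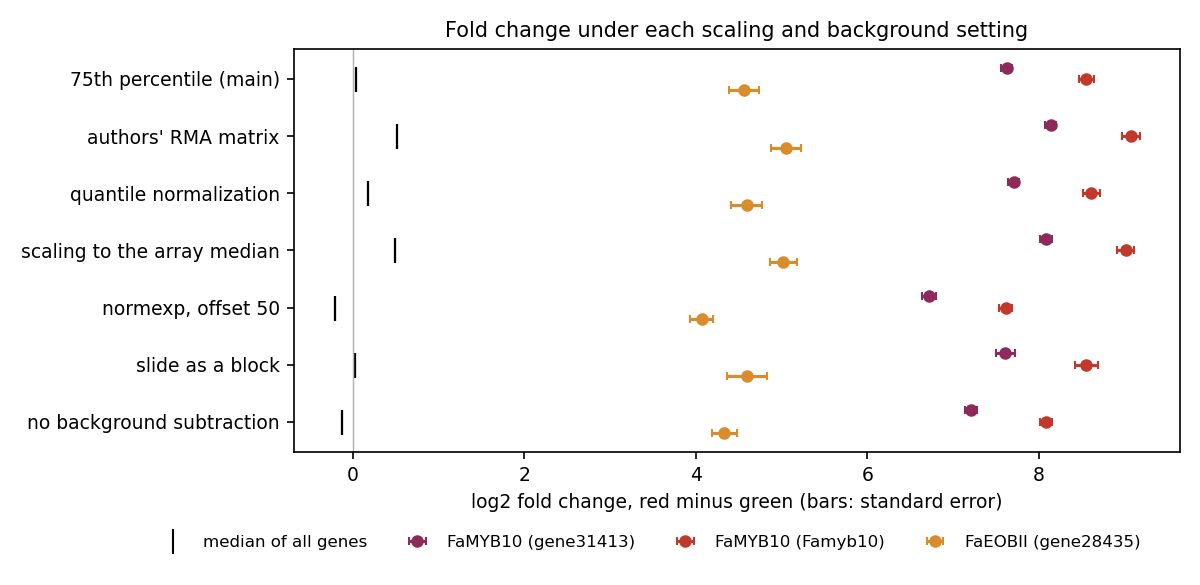
Log2 fold change, red minus green, of gene31413, Famyb10 and gene28435 (points, with standard errors from limma) under 7 scaling, background and block settings, with the median over all genes as a black tick. The fold changes are lowest with normexp (6.72, 7.62 and 4.07) and highest in the authors' RMA matrix (8.14, 9.07 and 5.05), where the median of all genes is also highest.

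Within the slide that held red array 2 and both green arrays, the log2 fold changes were 7.61 for gene31413, 8.56 for Famyb10 and 4.60 for gene28435. These differed from the values over all arrays by at most 0.03, and the slide of red array 1 held no green sample to compare.

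Among MYB genes the 2 FaMYB10 probes stood first. Besides the members, 171 genes on the arrays were annotated as MYB, of which 117 passed the filter. Of these, 41 were higher in red, 56 were lower and 20 were not called, with a median log2 fold change of -0.25 beside 0.04 over all genes. In the RMA matrix 52 were higher and 49 lower, with a median of 0.21 beside its 0.51. Ranked by fold change over the 120 MYB names tested, 2 of which stand for FaMYB10, Famyb10 was 1st, gene31413 2nd and gene28435 5th. The genes in between were gene25060, which like gene28435 has a P-type R2R3 MYB among its annotated hits, with a log2 fold change of 6.85, and gene19715, annotated as MYB1 and chosen after its values were seen, with 4.65. gene19715 was not well above background in either green sample, so it was at least 5.97-fold higher and its place relative to gene28435 is not set.

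Of the 4 other MYB genes with the largest fitted changes, gene25060 rose, like FaMYB10 and FaEOBII, and 3 fell. gene18691 and gene02324, both annotated as MYB92, were at least 209-fold and at least 30.3-fold lower in red than in green. gene25982, annotated as GmMYB29A2, was at least 65.6-fold lower. These are lower bounds because none of the 3 was well above background in red, so the red side was taken on each array as the higher of the gene's own signal and the lowest signal that counted as above background. Their limma adjusted p were 7.79e-05, 4.23e-05 and 3.40e-05.

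**Figure D3:**
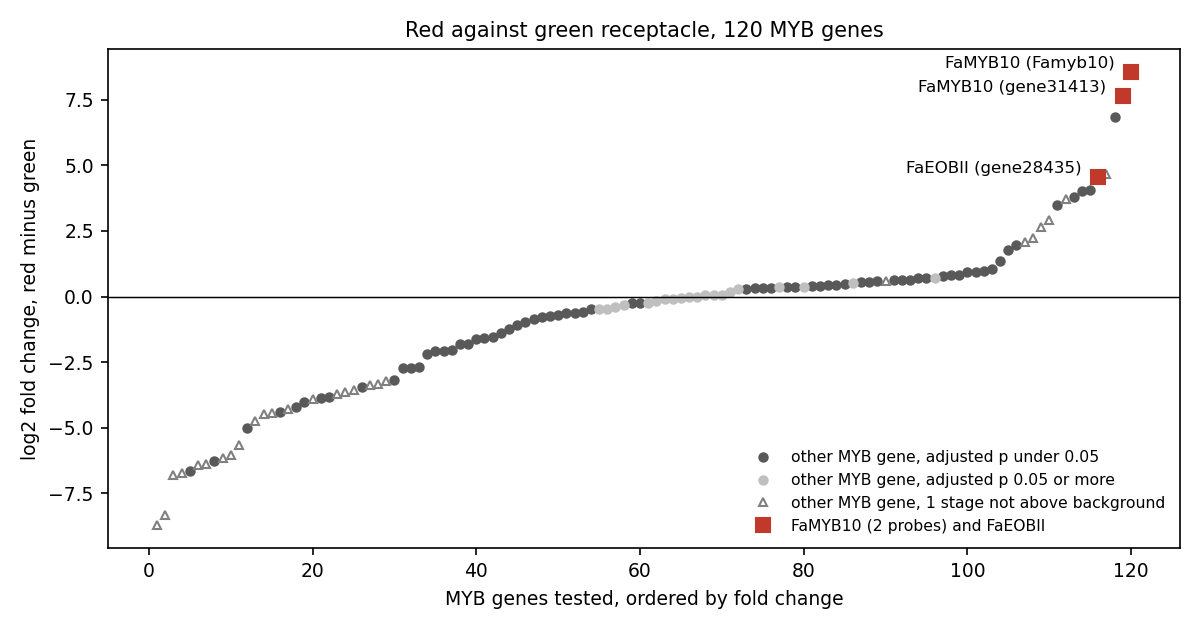
Log2 fold change, red minus green, of the 120 MYB genes tested, ordered by its value. Red squares are FaMYB10 (gene31413 and Famyb10) and FaEOBII (gene28435), at 7.63, 8.56 and 4.57, circles are other MYB genes, in pale grey where the adjusted p was not under 0.05, and open triangles are genes not well above background in either sample of 1 stage, for which the value is not a bound.

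A list of 6 genes that the study places under FaMYB10 or FaEOBII, which leaves out the dihydroflavonol reductase also placed there, was higher in red in 6 of 6 cases, beside 37.8% of all genes, with a median log2 fold change of 2.52. The study picked them with these samples in view, so this count is not independent evidence of their direction. The pair that the study places under both FaMYB10 and FaEOBII rose most. gene25260 (FaEGS2), which makes eugenol, had levels of 4.58 and 4.56 in red and of -5.14 and -5.20 in green, and a log2 fold change of 9.74 ± 0.06 (SE, n = 2 against 2), with 1 of the 2 green arrays well above background. gene20700 (FaCAD1), which reduces cinnamyl aldehydes to alcohols, had levels of 8.23 and 8.34 in red and of -0.03 and -0.21 in green, a log2 fold change of 8.40 ± 0.10. Both thus had higher fold changes than FaEOBII and than the gene31413 probe of FaMYB10. gene29482 (cinnamoyl-CoA reductase, FaCCR) followed with 3.85 ± 0.07.

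The early flavonoid genes among the 6, which the study also places under FaMYB10, moved far less than that regulator. gene14611 (flavanone 3-hydroxylase, FaF3H) had levels of 8.33 and 8.52 in red and of 7.19 and 7.26 in green, a log2 fold change of 1.19 ± 0.10. The chalcone synthases gene26825 and gene26826 (FaCHS), which make the first flavonoid intermediate, rose by 0.59 and 0.57, each with an SE of 0.08. These 3 genes were already far above the 75th percentile of the arrays in green receptacle. The limma adjusted p of the 6 genes lay between 3.11e-05 and 0.0044.

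**Figure D4:**
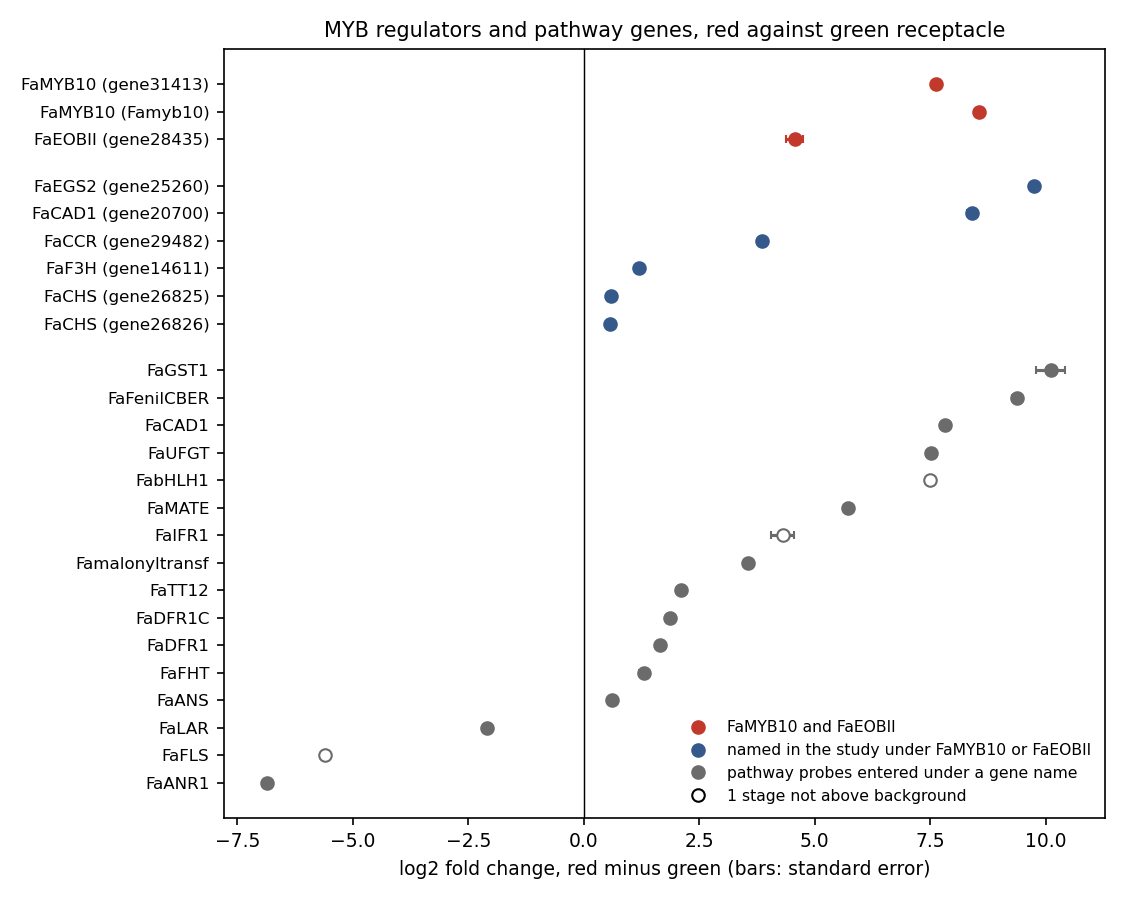
Log2 fold change, red minus green, with standard errors from limma, of the MYB regulators, of 6 genes placed under them in the study and of 16 pathway probes entered under a gene name. FaGST1 (10.11), FaEGS2 (9.74) and FaFenilCBER (9.38) lie to the right of Famyb10 (8.56), FaCHS lies near 0, and FaLAR, FaFLS and FaANR1 lie to the left of 0. Open circles were not well above background in 1 stage, and their values are not bounds.

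On the arrays, 17 further pathway probes carry gene names, like Famyb10. They were picked by name outside the rule for named genes, and 16 passed the filter. Of these, 13 were higher in red (81.25%, beside 37.8% of all genes) and 3 lower (18.75%, beside 35.0%). The counts describe the picked probes only. Among these probes, those of late steps of anthocyanin formation were on the rising side. The glucosyltransferase FaUFGT rose by 7.52, the dihydroflavonol reductase FaDFR1 by 1.65 and the anthocyanidin synthase FaANS by 0.61 on the log2 scale. FaGST1, a glutathione S-transferase, had the largest change of these probes, 10.11 ± 0.31. The proanthocyanidin genes FaANR1 (anthocyanidin reductase) and FaLAR (leucoanthocyanidin reductase) fell by 6.86 and by 2.09. The flavonol synthase FaFLS was at least 10.4-fold lower. The FaCAD1 probe gave 7.83, beside 8.40 for gene20700, so these probes also differed in the size of the change. FabHLH1, of the family that partners MYB regulators, was at least 44.3-fold higher in red, with no green sample well above background.

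Genes caught by flavonoid and anthocyanin words anywhere in their annotation did not share one direction with FaMYB10. Many are annotated first as aminocyclopropane carboxylate oxidases, N-methylcoclaurine hydroxylases or other oxygenases. The counts thus describe a broader set than the flavonoid pathway. Of 126 tested, 51 were higher, 55 lower and 20 not called, a median log2 fold change of -0.09 beside 0.04 over all genes. In the RMA matrix 61 were higher and 39 lower. FaEGS2, which the annotation also catches, had the largest change. The flavonoid 3'-hydroxylase gene12513 was at least 78.6-fold lower, and the anthocyanidin reductase gene24665 fell from levels of 5.20 and 5.14 in green to -1.81 and -1.84 in red. The cytochrome P450 gene06906 rose by 6.93 on the log2 scale, with 1 of the 2 green samples well above background. Of 45 genes caught by words for the phenylpropene and monolignol branch, 33 were higher in red (73.3%, beside 37.8% of all genes). A further 8 were lower and 4 were not called, with a median of 1.41. The study names FaCAD1 and FaEGS2 under FaEOBII, not the branch as a whole. Besides FaEGS2, the rule named 3 genes of this list, annotated as cinnamyl alcohol dehydrogenases, gene00496 (at least 27.5-fold higher), gene20697 (log2 fold change 5.51) and gene20698 (5.44). gene20700 (FaCAD1, 8.40) is not in this list, because its annotation names only a mannitol dehydrogenase. gene20697 and gene20698 are numbered close to gene20700, and how far such similar copies bind each other's probes was not tested.

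Of 40 genes caught by words for possible partners of FaMYB10, 12 were higher, 24 lower (60.0%, beside 35.0% of all genes) and 4 not called, with a median log2 fold change of -0.70. In the RMA matrix 14 were higher and 18 lower, with a median of -0.18 beside 0.51 over all genes. The 4 with the largest changes were all annotated as MATE efflux carriers, which move metabolites into the vacuole and are no transcription partners: gene13214 (at least 16.6-fold higher), gene18927 (at least 9.31-fold lower), gene03634 (log2 fold change 5.15) and gene01747 (-3.98). Among the genes whose annotation does name a regulator, chosen after their values were seen, the TTG1-like WD40 gene15643 rose by 1.08 and a second one, gene12450, had -0.18 (limma adjusted p = 0.10). The bHLH gene32494, annotated as an anthocyanin regulator, fell by 1.29.

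The 5 genes with the profile most like each member over the 4 arrays were taken by the distance between centred log2 values among the 21494 genes well above background on all arrays. With 2 stages this distance mostly reflects the size of the change. For gene31413 they were gene15184 (a benzoate or salicylate carboxyl methyltransferase, distance 0.09), FaUFGT (0.12), gene08424 (a PR-4-like protein, 0.17), FaSKP1 (0.18) and gene12591 (a UDP-glucose glucosyltransferase, 0.21). Famyb10 was only 22nd nearest to gene31413, at 0.94, and gene31413 was 10th nearest to Famyb10.

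For Famyb10 the nearest were gene19112 (annotated as an elicitor-responsive protein, 0.15), gene20700 (FaCAD1, 0.18), gene34867 (0.27), the chitinase gene21702 (0.29) and gene34259 (0.49). FaCAD1 thus lay nearer to the FaMYB10 probe Famyb10 than to FaEOBII in the size of its change. For gene28435 they were gene25089 (a 12-oxophytodienoate reductase, 0.20), gene21905 (0.21), the acetylglucosaminyltransferase gene31094 (0.21), the short-chain dehydrogenase gene22569 (0.22) and gene32561 (0.23). The 2 FaMYB10 probes were 1651st and 6127th nearest to gene28435.

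RNA of other tissues was looked for with annotated markers. Of 50 green tissue markers 45 were lower in red, and their summed signal fell from 1564 to 1625 times the 75th percentile in green to between 347 and 364 in red. Of 38 genes caught by words for achenes, 28 were higher in red and 8 lower, with summed signals of 207 to 214 in red and 105 to 112 in green. The 15 of them annotated as oleosins, 11S globulins, legumins or vicilins were above background on all 4 arrays, and 11 were higher. Of 45 genes caught by words for pollen, 22 were higher and 17 lower, with sums of 458 to 461 in red and 327 to 359 in green. Many of these are annotated first as Mal d I allergens, berberine bridge enzymes or other enzymes. Their sums are thus no measure of pollen RNA. The Mal d I allergen gene07063 had mean levels of 6.30 in red and 3.25 in green. gene22087, annotated as pollen-specific, had 5.25 in red and 8.13 in green. The fitted log2 fold changes of single genes caught by achene words ranged from -7.13 to 7.04. The lowest was that of gene11615, annotated first as a proline-rich protein and not well above background in red. The summed signals of the genes caught by achene words thus do not measure achene RNA alone. The part of these tissues in the result was not tested.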

How the data were processed

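Receptacle RNA of 2 red and 2 green samples was hybridised to 1-colour arrays. Per the file headers, Agilent Feature Extraction 10.7.3.1 gave the intensity of each spot, background-subtracted and not normalized between arrays. The RMA matrix deposited by the authors holds linear values; how it was made is not given in the sources used here.

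Members and lists were chosen with earlier results of these data known. Signals were taken as log2 minus each array's 75th percentile. Between 84 and 255 spots marked as uneven or outliers were left out per array, spots were averaged per probe, and probes that 2 or more arrays showed well above background were averaged per gene. A further 40 genes lacked a value on an array. limma 3.58.1 in R 4.3.3 (lmFit, eBayes; 1.81 prior and 2 residual degrees of freedom) gave two-sided p-values, adjusted by Benjamini-Hochberg over 24978 genes, and called those under 0.05. The procedure was tested on simulated data.

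Named genes are the members, the 6 listed genes placed under them in the study and the 6 stage genes, the 4 largest non-overlapping changes past the test in each annotated list, and the 5 nearest profiles. The series description gives 4 oligos per sequence, whereas the files hold 35335 probes for 35116 names. Mean spot signals were not among the columns, so normexp used median signals with an offset of 50. The number of arrays and the low green signals limit precision. Alternatives were other scalings, background corrections, filters, summaries, tests, blocks and leaving out each sample.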

Additional observations from a re-analysis of the deposited data

How the results depend on the processing

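FaMYB10 and FaEOBII stayed higher in red receptacle under all 19 alternatives, and past the threshold in the fits that kept 2 samples per stage. The fit with a slide term equals the fit without red replicate 1. Each name has 1 probe, well above background on all 4 arrays, so other filters and summaries over probes could not change its fold change. Other tests and the replicate block likewise left the fold change as it was and moved only its p-value. The log2 fold change ranged from 6.72 to 8.14 for gene31413, from 7.62 to 9.07 for Famyb10 and from 4.07 to 5.05 for gene28435, and the highest adjusted p, all from the methods' t-test after Benjamini-Hochberg adjustment, were 0.0025, 0.0035 and 0.0097. Leaving out each sample in turn gave 7.61 to 7.65, 8.47 to 8.65 and 4.34 to 4.79, where the lone sample of a stage was assumed to vary like the other stage. The excess of Famyb10 over gene31413 ranged from 0.84 to 1.02 and that of gene31413 over gene28435 from 2.66 to 3.29. By fold change, gene31413 ranked 31st of 24978 in the main analysis, 118th in the RMA matrix and 16th with normexp.

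Over all genes, 18191 were called. The methods' t-test at an unadjusted p of 0.05 and a log2 fold change beyond 2 called 4537, by its stricter construction, and 14885 after Benjamini-Hochberg adjustment. Of the calls, 51.9% were higher in red, against 68.8% in the RMA matrix, 68.9% with scaling to the array median, 35.5% with the methods' t-test at its threshold and 39.9% with normexp. The number of stage genes called lower was 0 in the RMA matrix instead of 1.

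With the replicate number as a block 18309 genes were called, and no call of FaMYB10 or FaEOBII was changed (adjusted p 0.00088, 0.00088 and 0.0012). The deviations of same-numbered samples correlated at 0.08 over genes. With 2 samples per stage, this value cannot show whether same-numbered samples were paired. The green levels of these probes, at 3.52 to 6.91 times the local background, limit how precisely their folds can be given.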
